A study of Mus musculus with 20 samples.

Results

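Axon guidance ligands and receptors were taken as the 67 genes, of 43280 in the deposited count tables, whose symbols name an ephrin, an Eph receptor, a semaphorin of classes 3 to 7, a neuropilin, a plexin, a Slit, one of *Robo1* to *Robo3*, a netrin or an Unc5 receptor. They comprised 8 ephrins and 14 Eph receptors, 20 semaphorins with 2 neuropilins and 9 plexins, 3 Slits with 3 Robo receptors, and 4 netrins with 4 Unc5 receptors. The study isolated mesenchymal cells of the mouse stomach and intestine at embryonic day E13.5, and of the adult small intestine, with and without *Eed*, a core subunit of the Polycomb repressive complex PRC2. RNA-seq covered 12 libraries in 6 groups of 2, and ATAC-seq gave 1 list of accessible regions for each of the 4 embryonic conditions, with 2 libraries pooled in each. The comparisons ask how guidance genes differ between the organs, whether loss of *Eed* changes them in each organ, and what they do in the adult intestine.

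Embryonic control animals carried Bapx1-cre and the Rosa26mTmG reporter and no floxed *Eed*, and *Eed* KO animals were Eedfl/fl;Bapx1-cre;Rosa26mTmG, so that both carried the Cre and the reporter. The labels give the strain of both as C57BL/6, whereas the study's reporting summary speaks of mixed backgrounds and gives the Eedfl line, which the controls lack, as mixed 129 x C57BL/6, the Rosa26mTmG line as mixed C57BL/6J x CD-1 and the Bapx1 Cre line as C57BL/6. Cells were sorted by the GFP that the reporter gives once the Cre has acted, in cells that express *Bapx1* or descend from such cells. Adult libraries are labelled WT and EED-KO intestinal mesenchyme. Per the study's methods they came from mice of about 10 weeks that carried PdgfrβCre-ERT2 and Rosa26mTmG, with or without Eedfl/fl, received tamoxifen, and had GFP-positive cells sorted from small intestine after removal of the villi and epithelium. Stage, Cre line, sort and library kit differ together between the embryonic and adult libraries and cannot be told apart.

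Ephrins and Eph receptors, semaphorins with their plexin and neuropilin receptors, Slits with Robo receptors, and netrins with Unc5 receptors steer growing axons by attraction or repulsion at the cell surface. The same pairs act outside the nervous system, in vessel growth, in cell sorting at tissue borders and in cell migration. In the gut, netrins attract migrating enteric neural crest cells that carry the receptor DCC, and EphB receptors with ephrin-B ligands set the position of epithelial cells along the crypt.

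Gene counts ranged from 30236159 to 39606157 per embryonic library (median 36232258.5), and from 11404712 to 15903642 per adult library. The members took 0.540% and 0.566% of the gene counts in the control intestine, 0.550% and 0.542% in the control stomach, with 0.518% and 0.671% after *Eed* KO in the intestine and 0.579% and 0.699% after *Eed* KO in the stomach. Replicate 2 of each embryonic *Eed* KO group stood apart, with a larger share of guidance RNA and the fewest spike-in counts, 5501 in the intestine and 4871 in the stomach against 14932 and 12108 in replicate 1. In the adult intestine control libraries gave shares of 0.163% and 0.144%, and *Eed* KO libraries 0.0845% and 0.0752%. With 2 libraries per group, and nothing in the labels that ties each to a separate animal, p-values measure only the spread between these libraries.

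*Eed* itself was read first, over the whole gene, although the floxed allele removes only a segment of it. Its normalised level, in CPM (counts scaled to library size with edgeR's TMM factors), was 38.1 and 40.1 in the control intestine, 40.1 and 41.5 in the control stomach, with 10.7 and 8.59 after *Eed* KO in the intestine and 11.5 and 7.40 after *Eed* KO in the stomach. Every embryonic *Eed* KO library was far below every control library on this scale. The log2 fold change was -2.02 in the intestine (SE 0.208, edgeR adjusted p = 0.00464) and -2.11 in the stomach (SE 0.208, edgeR adjusted p = 0.00175), lower in all 4 libraries, and with library sizes from spike-in totals it was -0.23 in the intestine and turned to 0.14 in the stomach (-2.09 and -2.26 relative to all genes). In the adult intestine *Eed* was at 29.7 and 33.4 CPM in control and at 25.7 and 25.0 CPM in the libraries labelled EED-KO. These groups did not overlap, but the adult difference did not pass the test (log2 fold change -0.32, SE 0.208, edgeR adjusted p = 0.317), and it was 0.58 when library sizes came from mesenchyme marker totals, a scaling chosen after seeing the data that raised the median of all genes by 0.92. The adult difference was -0.76 with spike-in totals, or -0.35 relative to all genes. These counts over the whole gene do not settle the deletion in the adult, where *Eed* KO below stands for the label.

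Spike-in RNA bears on how every change below is read. Library sizes taken from spike-in totals moved the median log2 change of all genes by 2.40 for *Eed* KO against control stomach, 1.86 for *Eed* KO against control intestine, 0.29 for control intestine against control stomach, -0.25 for *Eed* KO intestine against *Eed* KO stomach, 0.53 for the interaction and -0.41 in the adult. Changes are therefore given relative to all genes, under TMM scaling. On the spike-in scale the members' median stood 0.22 and 0.16 above that of all genes in the *Eed* KO stomach and intestine, against 0.15 and 0.10 under TMM scaling, but it stood below that of all genes with 1 RUVg factor (-0.31 and -0.27) and without *Eed* KO replicate 2 of the organ (-0.06 and -0.04).

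Marker lists show what the sorted cells held. All embryonic libraries carried the mesenchyme list at high level, with *Col3a1* the most abundant gene by CPM and *Nkx3-2*, the gene also called *Bapx1*, at 13.46 to 36.9 CPM. The 12 endothelial markers were low but moved with genotype: their summed level was 24.4 and 29.1 CPM in the control intestine, 27.5 and 26.6 in the control stomach, with 68.9 and 68.3 after *Eed* KO in the intestine and 42.7 and 66.5 after *Eed* KO in the stomach. *Kdr* was the most abundant of them by CPM in every embryonic library, 7 of the 12 were called higher in *Eed* KO in each organ, and *Sox17* was at 0 in both control intestine libraries. Leukocyte markers summed to between 5.98 and 13.46 CPM in the embryonic libraries, with *Cd3e* at 0 in all 8 of them and *Ptprc* at 0 in all 4 stomach libraries and at most 1 count in the others. The part of these markers in the results was not tested. In bulk RNA, fewer cells of a type and less RNA per cell cannot be told apart.

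Guidance genes were broadly expressed in embryonic gut mesenchyme. Between 58 and 61 of the 67 members reached 1 TPM (counts divided by gene length and scaled to the same total in each library) in each embryonic library. Among the ligands, *Efnb2*, a transmembrane ephrin, had the highest mean level over embryonic control libraries, at 166 TPM, and *Sema5a*, a transmembrane semaphorin, led its family with 89.2 TPM. Taken by organ, *Efnb1* led the ephrins in the control intestine (151 and 151 TPM, against 119 and 112 TPM for *Efnb2*) and *Sema3d* the semaphorins in the control stomach (101 and 91.5 TPM, against 62.2 and 72.0 TPM for *Sema5a*). *Ntn3*, a secreted netrin, led its family at 67.9 TPM, and *Slit2*, a secreted Robo ligand, led the Slits at 48.0 TPM. The ligands thus included membrane-bound and secreted cues. Among the receptors, *Plxnb2*, a receptor for class 4 semaphorins, was the most abundant member at 248 TPM. The ephrin-B receptor *Ephb4* stood at 165 TPM and the semaphorin and VEGF co-receptor *Nrp1* at 129 TPM, while the netrin receptor *Unc5c* (75.9 TPM) and the Slit receptor *Robo1* (73.8 TPM) led the remaining families. Ligands and their receptor families were thus detected in the same libraries. The map of levels shows all 67 members in all 12 libraries.

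**Figure D1:**
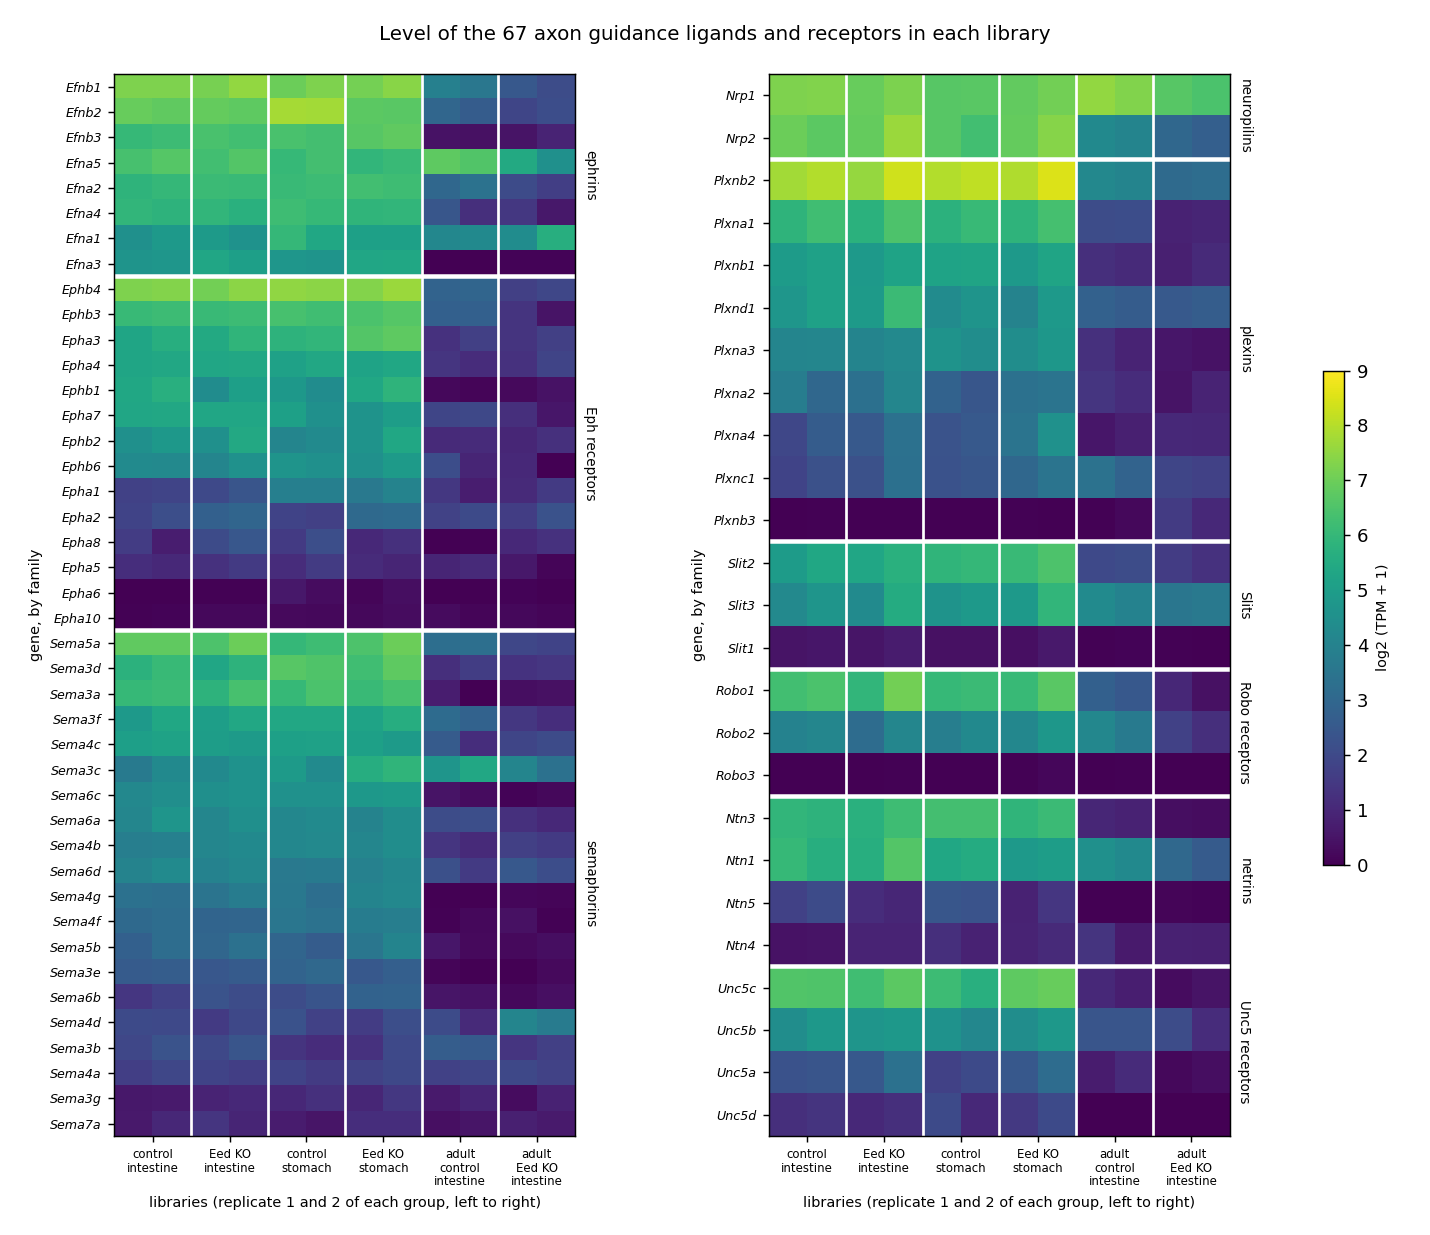
Each cell is the log2 of TPM plus 1 for 1 gene (vertical axis, grouped by family) in 1 library (horizontal axis, replicates 1 and 2 of each group side by side). The 8 embryonic libraries resemble each other at this scale, and most genes are darker in the 4 adult libraries, with *Nrp1*, *Efna5* and *Sema3c* among the exceptions.

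By family, summed levels dropped in the adult libraries. The ephrins summed to 579 and 601 TPM in the control intestine, 723 and 724 in the control stomach, with 615 and 640 after *Eed* KO in the intestine and 613 and 654 after *Eed* KO in the stomach. The control stomach stood above all other embryonic groups, although counts per spike-in count, a scale chosen after seeing the data, put the control organs level (log2 ratio 0.01) and both *Eed* KO groups above their controls. The Unc5 receptors summed to 118 and 123 TPM in the control intestine, 100 and 71.0 in the control stomach, with 106 and 142 after *Eed* KO in the intestine and 135 and 156 after *Eed* KO in the stomach. Control stomach was lowest and *Eed* KO stomach highest without overlap between these groups, on the spike-in scale too. The Robo receptors summed to 90.6 and 103 TPM in the control intestine, 77.4 and 87.6 in the control stomach, with 68.5 and 152 after *Eed* KO in the intestine and 83.2 and 129 after *Eed* KO in the stomach. The *Eed* KO values straddled or reached past those of their controls, since replicate 2 was the higher one in both organs. The Slits summed to 48.1 and 65.7 TPM in the control intestine, 82.0 and 91.1 in the control stomach, with 57.9 and 97.5 after *Eed* KO in the intestine and 95.7 and 147 after *Eed* KO in the stomach. Of the control organs the intestine was the lower, on the spike-in scale too (log2 ratio -0.40), and the intestine groups overlapped in TPM.

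**Figure D2:**
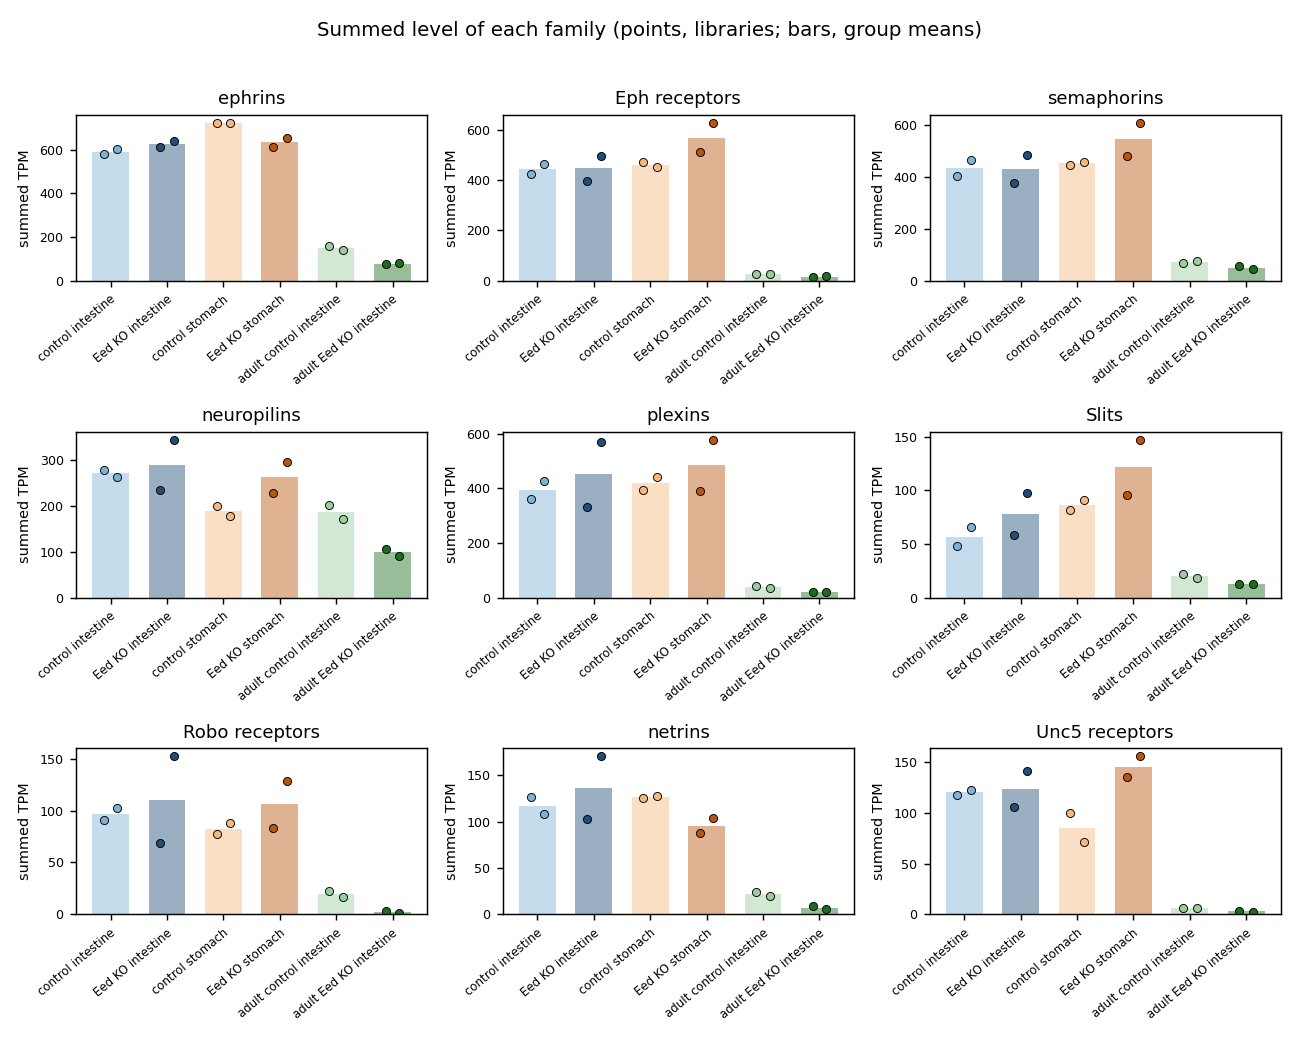
Summed TPM (vertical axes, from 0) of the members of each family in each group (horizontal axes), with a point for each library and a bar for the mean of 2 libraries. All 9 families are lower in the adult than in the embryonic intestine, the neuropilins least, and in all 9 panels the 2 points of *Eed* KO intestine stand further apart than those of control intestine.

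Adult control intestine expressed fewer of these genes, and at lower levels. There, 43 and 40 members reached 1 TPM, and in adult *Eed* KO libraries 38 and 35. The members summed to 574 and 508 TPM in adult control and to 302 and 277 TPM in adult *Eed* KO, against 2428 and 2620 TPM in the embryonic control intestine. Of the 60 members with at least 1 TPM in a control intestine library of either age, 48 had both adult control libraries below both embryonic ones, where 51.8% of all 18276 such genes did, and 4 had both above, where 34.5% of all genes did. The 4 were the secreted semaphorins *Sema3b* and *Sema3c*, the Sema7a receptor *Plxnc1* and the netrin *Ntn4*, named after their values were seen. *Sema3c* measured 24.8 and 41.3 TPM in adult control against 12.1 and 18.4 TPM in embryonic control intestine. *Nrp1*, the most abundant member in the adult, measured 184 and 156 TPM in adult control, with 154 and 158 TPM in the embryonic control intestine. Of the other members that led their families in adult control, the levels of the 2 ages overlapped likewise for the GPI-anchored ephrin *Efna5* (109 and 93.4 TPM against 81.4 and 97.2 TPM), *Slit3* (18.9 and 14.9 against 17.8 and 24.8 TPM) and *Robo2* (17.0 and 11.9 against 14.8 and 16.6 TPM). *Ntn1* averaged 20.2 TPM in adult control, *Plxnb2* 16.5, *Ephb4* 6.48 and *Unc5b* 4.22, each with both adult libraries below both embryonic ones. No test was run across ages.

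In the deposited lists of accessible regions, a peak lay within 1000 bp of the transcription start of 62 members in the control intestine, 62 in the control stomach, 63 in the *Eed* KO intestine and 62 in the *Eed* KO stomach. Of the 65 members tested for expression in the embryo, 61 had such a peak in the control intestine (as did 87.8% of all tested genes), 61 in the control stomach (88.3%), 62 in the *Eed* KO intestine (88.9%) and 61 in the *Eed* KO stomach (88.9%). The shares are near those of all expressed genes. The same 62 members had a peak in all 4 lists. *Sema4a* had one in the *Eed* KO intestine only and *Sema3a*, *Sema3b*, *Plxnb2* and *Plxnb3* had none in any list. These absences depend on the start and the window used. At RefSeq starts, 56 of 58 members had a peak in each list. Within 5000 bp of the start, all 65 tested members had one in each list. The median fold enrichment of the deposited peaks at member starts was 4.77 in the control intestine, 4.98 in the control stomach, 4.52 in the *Eed* KO intestine and 4.61 in the *Eed* KO stomach. With 1 pooled list per condition there was no test.

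Promoters are shown for 6 members that differ in RNA and had a peak over their start in every list: *Efnb2*, *Epha1*, *Epha2* and *Sema3c*, called in at least 2 embryonic comparisons, and the Slit receptors *Robo1* and *Robo2*, called in the adult. Promoters dense in the dinucleotide CG are, as background, the usual sites of PRC2 in mammals. Each sequence runs 5′ to 3′ on the strand of its gene, from 250 bases before to 50 bases after the start (RefSeq, build GRCm38.p6), with every CG in capitals. CG reads the same on both strands, TATAAA was searched on both strands, and the 2 motifs share no letter. Positions are chr8:8661193-8661492 (minus strand) for *Efnb2*, chr6:42373219-42373518 (minus) for *Epha1*, chr4:141300971-141301270 (plus) for *Epha2*, chr5:17574566-17574865 (plus) for *Sema3c*, chr16:72662899-72663198 (plus) for *Robo1* and chr16:74411776-74412075 (minus) for *Robo2*.
Efnb2: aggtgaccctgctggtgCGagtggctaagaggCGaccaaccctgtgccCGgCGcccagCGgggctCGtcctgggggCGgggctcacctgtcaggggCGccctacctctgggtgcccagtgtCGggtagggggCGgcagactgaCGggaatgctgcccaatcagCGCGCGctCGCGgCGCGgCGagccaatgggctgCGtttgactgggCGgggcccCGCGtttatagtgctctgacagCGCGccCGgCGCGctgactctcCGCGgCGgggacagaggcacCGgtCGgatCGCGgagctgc
Epha1: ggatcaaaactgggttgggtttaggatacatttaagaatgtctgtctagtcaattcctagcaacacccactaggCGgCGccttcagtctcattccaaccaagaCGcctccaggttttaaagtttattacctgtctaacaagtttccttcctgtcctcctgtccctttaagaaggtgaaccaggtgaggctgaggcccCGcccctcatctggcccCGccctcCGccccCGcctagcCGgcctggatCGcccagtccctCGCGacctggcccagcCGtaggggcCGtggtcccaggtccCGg
Epha2: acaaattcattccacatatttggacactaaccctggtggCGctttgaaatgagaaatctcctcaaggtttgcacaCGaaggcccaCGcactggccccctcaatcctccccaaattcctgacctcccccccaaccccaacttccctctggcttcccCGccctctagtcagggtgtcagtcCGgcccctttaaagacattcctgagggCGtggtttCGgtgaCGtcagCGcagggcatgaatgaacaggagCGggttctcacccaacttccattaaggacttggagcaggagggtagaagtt
Sema3c: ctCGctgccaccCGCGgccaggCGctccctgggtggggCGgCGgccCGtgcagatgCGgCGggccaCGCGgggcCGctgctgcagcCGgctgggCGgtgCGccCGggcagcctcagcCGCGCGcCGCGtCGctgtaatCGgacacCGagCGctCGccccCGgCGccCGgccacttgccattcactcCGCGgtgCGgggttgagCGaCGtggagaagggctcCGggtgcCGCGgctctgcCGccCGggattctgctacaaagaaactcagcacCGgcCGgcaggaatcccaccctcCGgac
Robo1: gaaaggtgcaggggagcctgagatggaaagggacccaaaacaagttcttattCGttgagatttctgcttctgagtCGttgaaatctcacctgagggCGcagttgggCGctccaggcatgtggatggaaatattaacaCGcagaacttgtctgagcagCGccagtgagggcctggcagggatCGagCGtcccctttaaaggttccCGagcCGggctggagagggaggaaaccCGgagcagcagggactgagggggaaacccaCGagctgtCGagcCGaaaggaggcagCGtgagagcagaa
Robo2: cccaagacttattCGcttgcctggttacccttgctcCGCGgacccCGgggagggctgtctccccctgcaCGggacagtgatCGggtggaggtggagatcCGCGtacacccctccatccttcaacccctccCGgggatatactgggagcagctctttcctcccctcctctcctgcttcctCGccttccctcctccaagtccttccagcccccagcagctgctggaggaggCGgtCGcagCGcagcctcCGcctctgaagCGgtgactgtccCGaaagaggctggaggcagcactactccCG

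Of the 67 members, 58 were in the RefSeq promoter table. CG occurred in 100% of their promoters and in 94.6% of all 32841 promoters, and the median number was 21.5 for members and 7 for all promoters. The *Sema3c* promoter held 42 CG (3.03% of promoters hold as many), and that of *Efnb2* held 35 (6.95% of promoters hold as many). *Robo2* held 17 (31.4%), *Robo1* 15 (34.6%), *Epha1* 14 (36.3%) and *Epha2* 10 (43.5%). The 6 promoters thus ran from CG-dense to ordinary. TATAAA was present on either strand in 2 member promoters, those of *Efnb2* and *Slit2*, and in 13.6% of all promoters. The *Efnb2* match lies on the strand opposite to its gene and reads tttata in the sequence shown. A match describes these letters alone.

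Between the control organs, 0 of 65 members tested were called higher in the intestine by edgeR (log2 fold change over 1 at an adjusted p below 0.05; 1.68% of 16218 genes were), 9 were at an unadjusted p under 0.05 (6.57% of genes), and DESeq2 called 2, *Sema3b* and the ephrin receptor *Ephb1*. In the other direction 4 were lower, *Efna1*, *Ntn4*, *Epha1* and *Epha6*, where 3.39% of all genes were. The replicate number as a block gave 1 higher, *Sema3b*, and 5 lower, *Sema3g* added, where 332 and 673 of 16218 genes were. The members' median log2 fold change was -0.16 with all genes at 0.00, and with spike-in totals it turned to 0.13 with all genes at 0.29. The plot of fold changes places every tested member in each comparison.

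**Figure D3:**
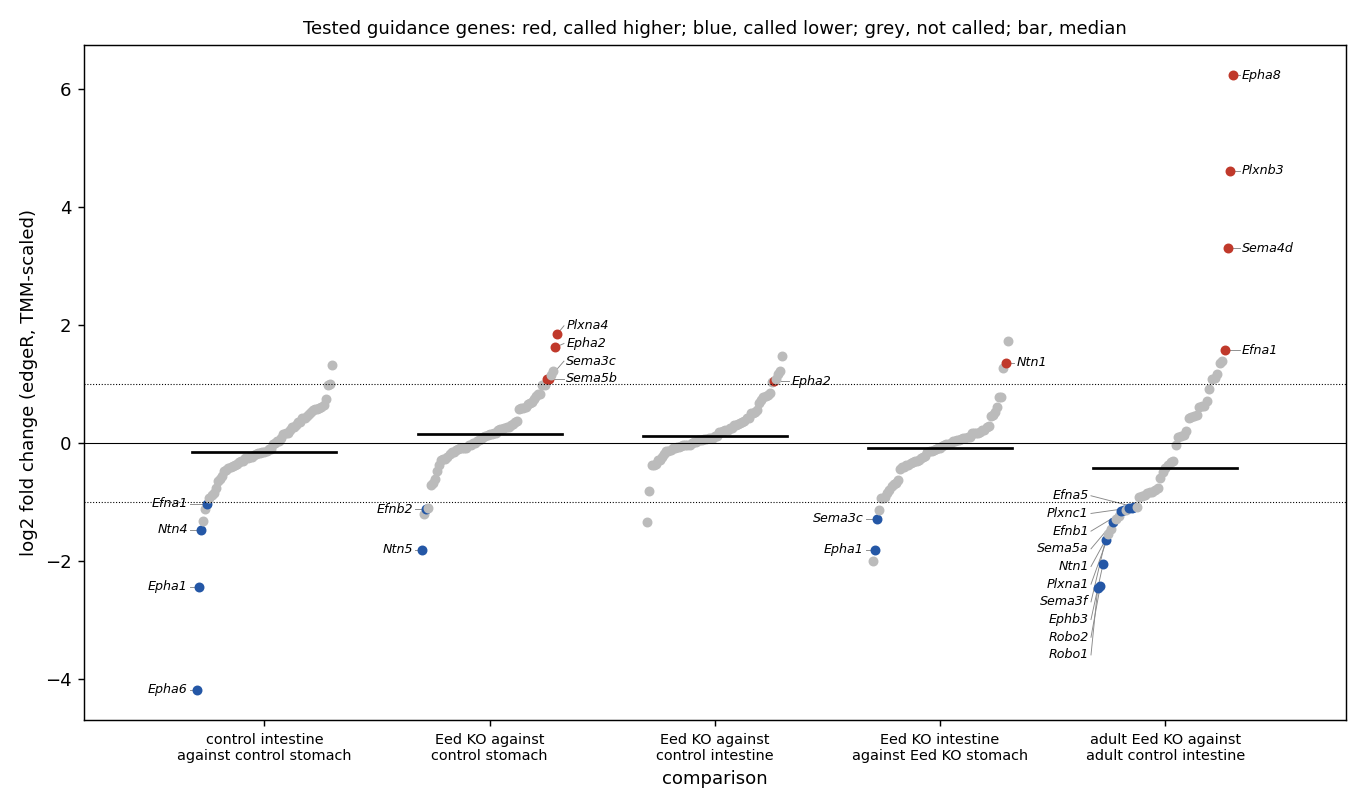
Log2 fold change (vertical axis) of every tested member in 5 comparisons (horizontal axis), sorted within each; dotted lines mark the fold threshold and the black bar the members' median. Called members are few in the embryonic comparisons, and the adult column holds 10 lower and 4 higher, with a median of -0.42.

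Ligands first: *Efnb2* measured 174 and 159 CPM in the control intestine and 313 and 305 CPM in the control stomach. Both stomach libraries were well above both intestine libraries, though the size of the difference stayed under the fold threshold (log2 fold change -0.89, SE 0.103, edgeR adjusted p = 0.00254). *Efna1*, a GPI-anchored ephrin, measured 13.7 and 16.8 CPM in the intestine and 38.2 and 24.3 CPM in the stomach. The groups did not overlap, with a wide gap between the stomach libraries. Its log2 fold change of -1.03 (SE 0.238, edgeR adjusted p = 0.0444) lost its call without either control intestine library, control stomach replicate 1 or either *Eed* KO stomach library, ranging from -1.32 to -0.67 when 1 library was left out, and with 1 RUVg spike-in factor (-0.94). *Ntn4* lay near the floor, at 0.450 and 0.471 CPM in the intestine and 1.59 and 0.994 CPM in the stomach. The stomach was higher in 2 of 2 libraries, but the call (log2 fold change -1.48, SE 0.345, edgeR adjusted p = 0.0461) was lost without any 1 of the 8 libraries (-1.78 to -1.11), with RUVg (-1.498) and with only the 2 groups compared (-1.48). *Slit2* was at 153 and 200 CPM in the intestine and 289 and 316 CPM in the stomach, passing the adjusted p alone (log2 fold change -0.78, SE 0.179, edgeR adjusted p = 0.0443), and the semaphorin *Sema6d*, at 54.8 and 65.5 CPM against 39.4 and 41.1 CPM, likewise did so in the other direction (log2 fold change 0.58, SE 0.118, edgeR adjusted p = 0.0280). Neither pair of groups overlapped.

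Among the receptors *Epha1*, an ephrin-A receptor, set the organs apart most firmly. It measured 2.64 and 2.83 CPM in the control intestine and 15 and 14.7 CPM in the control stomach. Replicates were close and the stomach was about 5 times higher (5.43-fold; log2 fold change -2.44, SE 0.198, edgeR adjusted p = 0.000691), a call that held without each library in turn. *Epha6*, another Eph receptor, gave 1 and 1 counts in the intestine and 29 and 16 counts in the stomach, a 20.3-fold ratio for which counting error alone allows 5.31 to 173 at 95% confidence. It was barely detected in the intestine, and its call (log2 fold change -4.19, edgeR adjusted p = 0.0300) ended without any of the 4 control libraries (-4.62 to -3.59 over all libraries left out). *Nrp1* measured 308 and 307 CPM in the intestine and 196 and 198 CPM in the stomach. It was the reverse of *Epha1*, higher in the intestine with no overlap, and passed the adjusted p alone (log2 fold change 0.64, SE 0.110, edgeR adjusted p = 0.0140). The number of members lower in the intestine fell from 4 to 1 without control intestine replicate 1 or 2 or control stomach replicate 1, and to 2 without control stomach replicate 2, without *Eed* KO stomach replicate 1 or 2, or with RUVg. The number higher was 1 without *Eed* KO intestine replicate 2 or either *Eed* KO stomach library, 2 by adjusted p alone or with only the 2 groups compared, and 1 with no low-count filter. Spike-in totals ended all 4 calls with the direction kept, at log2 fold changes of -0.72 for *Efna1*, -1.16 for *Ntn4*, -2.15 for *Epha1* and -3.81 for *Epha6*.

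Of 56 tested guidance partners outside the 9 families, 5 were lower in the control intestine and 0 higher by edgeR, where 3.39% and 1.68% of all genes were. At an unadjusted p under 0.05, 5 partners were higher, as were 6.57% of all genes. *Dcc*, the attractive netrin receptor, measured 0.365 and 0.202 CPM in the intestine and 3.36 and 4.92 CPM in the stomach. It was low in both organs and lower in each intestine library (log2 fold change -3.83, SE 0.548, edgeR adjusted p = 0.00668), a call that ended without control intestine replicate 1 or 2 (-4.32 to -3.49 over all libraries left out). The netrin-G1 gene *Ntng1* (log2 fold change -1.88, SE 0.202), the hepatocyte growth factor receptor *Met* (-1.78, SE 0.199) and the semaphorin effector *Crmp1* (-1.72, SE 0.231) were lower too, and kept the call without each library. Spike-in totals ended the calls of these 3, at -1.58, -1.49 and -1.38. Marker lists differed between these organs as well. The 13 enteric neural crest and neuron markers summed to 12.8 and 12.6 CPM in the control intestine and 23.2 and 26.9 CPM in the control stomach, with *Gap43* the most abundant in each library, none at 0, and 2 of 12 tested, *Erbb3* and *Gap43*, lower. Of 12 endothelial markers 4 were higher and 2 lower, and of 11 tested epithelial markers 2 were lower (67.6 and 107 CPM against 109 and 117 CPM, *Krt19* the most abundant by CPM, and *Cldn3* at 0 in both intestine and *Cdx2* at 0 in both stomach libraries). The part of these lists was not tested.

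In the *Eed* KO stomach, under TMM scaling, 4 of 65 members were called higher, *Sema3c*, *Sema5b*, *Epha2* and *Plxna4*, where 4.84% of all genes were, and 2 were called lower, *Efnb2* and *Ntn5*, where 0.808% of all genes were. The members' median log2 fold change was 0.15 with all genes at 0.00, and it turned to -0.27 with RUVg (all genes at 0.04) and to -0.07 without *Eed* KO stomach replicate 2. This comparison and that of the control organs share the control stomach libraries, so their values stand side by side without any count of overlap. Smooth muscle markers summed to 2853 and 2970 CPM in the control stomach and to 1820 and 2059 CPM in the *Eed* KO stomach. The mesothelium list summed to 540 and 561 CPM in control and to 335 and 436 CPM in *Eed* KO. The pericyte list summed to 989 and 1067 CPM and to 776 and 841 CPM. In these 3 lists 0 genes were called by edgeR in either direction. By adjusted p alone, 2 mesothelium genes and 1 pericyte gene were lower, as were 316 of 16218 genes. Not all listed genes fell: *Wt1* gave 2666 and 2990 counts in control against 4185 and 5121 in *Eed* KO, and *Des* 1485 and 1666 against 2081 and 2640. The part of these lists was not tested.

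*Efnb2*, higher in the control stomach than in the control intestine, was the most abundant member called. It measured 313 and 305 CPM in the control stomach and 146 and 136 CPM in the *Eed* KO stomach. Both *Eed* KO stomach libraries were below all control libraries of either organ. The log2 fold change was -1.13 (SE 0.104, 2.19-fold, edgeR adjusted p = 0.00123), lower in 2 of 2 libraries, and with spike-in totals the sign turned (1.25, or -1.16 relative to all genes). The call held without each library in turn and ended with 1 RUVg factor (-0.92). *Ntn5*, a netrin family gene, measured 3.10 and 2.86 CPM in control against 0.563 and 1.12 CPM in *Eed* KO stomach. Both *Eed* KO libraries were lower, at a low level (log2 fold change -1.82, SE 0.354, edgeR adjusted p = 0.0229), while spike-in totals turned the value to 0.73 (-1.67 relative to all genes). The call ended without *Eed* KO stomach replicate 1 or either control stomach library (-2.40 to -1.40 over all libraries left out) and with RUVg (-2.06).

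Of the ligands that rose, *Sema3c*, a secreted semaphorin known for its part in outflow tract and vessel growth, measured 67.3 and 44.1 CPM in the control stomach and 108 and 129 CPM in the *Eed* KO stomach. Both *Eed* KO libraries exceeded both controls (log2 fold change 1.09, SE 0.249, edgeR adjusted p = 0.0401), and the call ended without any of the 4 stomach libraries (0.81 to 1.42) and with RUVg (0.87). *Sema5b*, a transmembrane semaphorin, measured 15.5 and 11.9 CPM in control against 24 and 34.1 CPM in *Eed* KO. The groups did not overlap (log2 fold change 1.08, SE 0.246, edgeR adjusted p = 0.0388), and the call ended without *Eed* KO stomach replicate 2 or any of the 4 control libraries (0.81 to 1.31) and with RUVg (0.56). The GPI-anchored ephrin *Efna3* passed the adjusted p alone, at 20.4 and 19.7 CPM in control against 30.5 and 29.7 CPM in *Eed* KO (log2 fold change 0.59, SE 0.131, edgeR adjusted p = 0.0364).

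Of the receptors, *Epha2*, an ephrin-A receptor, measured 3.80 and 3.47 CPM in the control stomach and 10.9 and 11.3 CPM in the *Eed* KO stomach. It was 3.07-fold higher with replicates close together (log2 fold change 1.62, SE 0.181, edgeR adjusted p = 0.00279), and it was the 1 higher member whose call held under every alternative run and without each library. *Plxna4*, the plexin through which *Sema3a* acts on axons, measured 16.4 and 19.8 CPM in control against 41.1 and 88.7 CPM in *Eed* KO. Both *Eed* KO libraries were above the controls but more than 40 CPM apart (log2 fold change 1.84, SE 0.450, edgeR adjusted p = 0.0498). Its call ended without *Eed* KO stomach replicate 2 or any of the 4 control libraries (1.18 to 2.29), with RLE size factors (1.85) and with RUVg (0.35). *Epha3* (103 and 111 CPM in control against 172 and 187 CPM in *Eed* KO; log2 fold change 0.75, SE 0.150, edgeR adjusted p = 0.0256) and *Unc5c* (286 and 201 CPM, then 422 and 439 CPM; 0.82, SE 0.187, edgeR adjusted p = 0.0393) passed the adjusted p alone, without overlap between groups. The number higher went from 4 to 1 without *Eed* KO stomach replicate 2 or control stomach replicate 2, and to 2 without control stomach replicate 1 or control intestine replicate 1 or 2. It was 7 by adjusted p alone, and with RUVg 1 was higher and 1 lower (*Epha2* and *Ntn1*). The replicate number as a block gave 5 higher, *Unc5a* added, where 1024 of 16218 genes were. The number lower went from 2 to 1 without *Eed* KO stomach replicate 1 or control stomach replicate 1 or 2, and spike-in totals gave 60 higher and 0 lower, where 16386 of 17739 genes were higher and 18 lower.

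**Figure D4:**
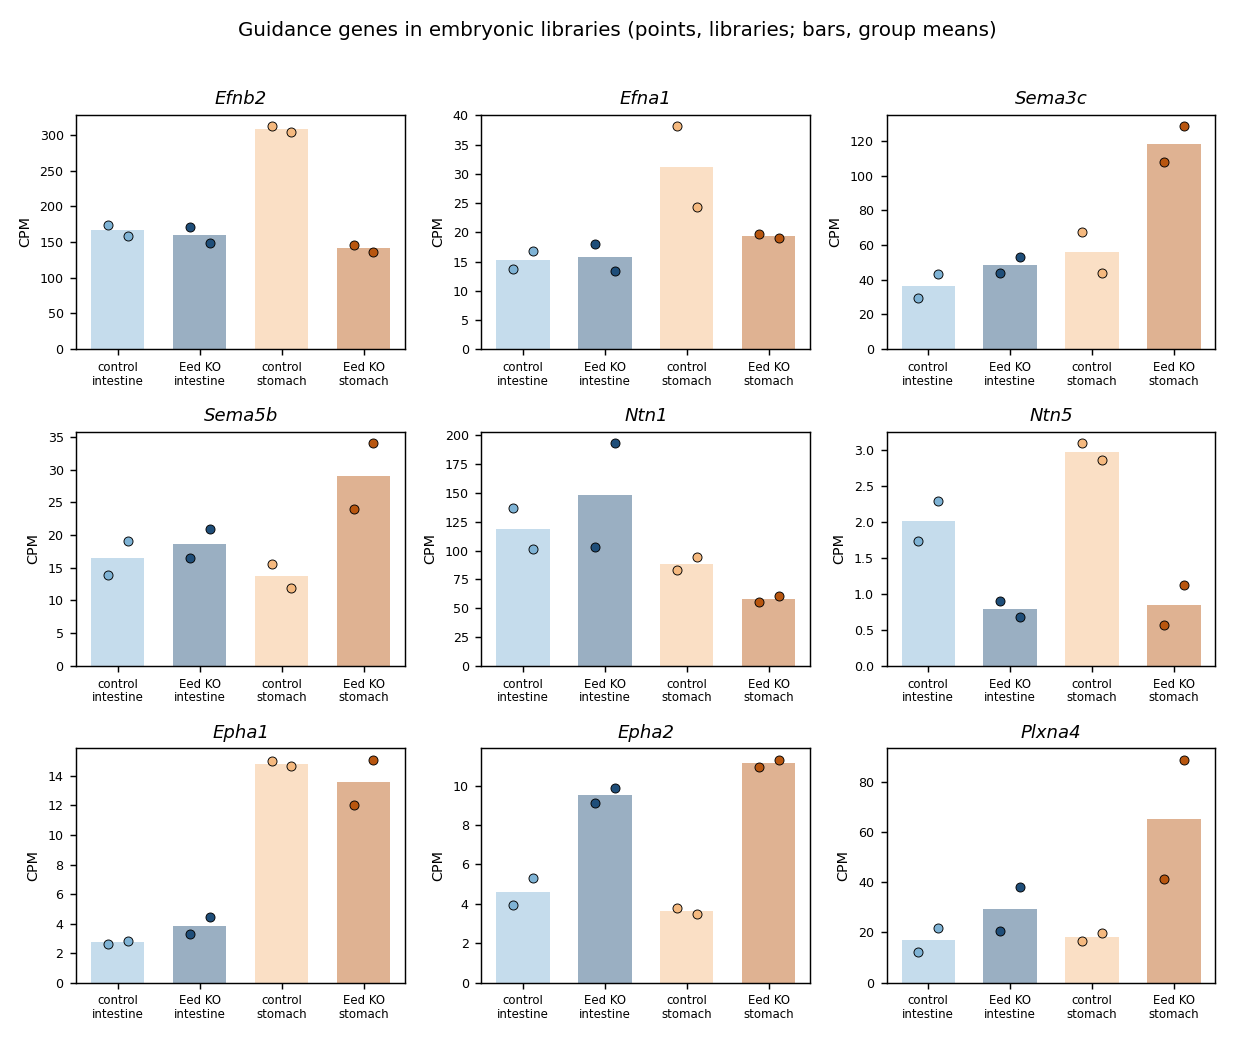
CPM (vertical axes, from 0) of 9 members called in an embryonic comparison, for each of the 4 embryonic groups (horizontal axes), with a point for each library and a bar for the mean of 2. *Efnb2* is high in the control stomach alone on this scale (313 and 305 CPM), *Epha1* is high in both stomach groups, and *Epha2* is high in both *Eed* KO groups, while spike-in totals would place *Efnb2* of the *Eed* KO stomach above its control.

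In the *Eed* KO stomach, under TMM scaling, 9 of 56 tested partners were called higher and 2 lower, where 4.84% and 0.808% of all genes were. *Robo4*, the Robo receptor of endothelium, measured 0.0290 and 0.127 CPM in the control and 0.858 and 1.54 CPM in the *Eed* KO stomach. It was higher in both libraries at a very low level (log2 fold change 3.83, SE 0.643, edgeR adjusted p = 0.0141), beside the 7 of 12 endothelial markers called higher, whose part was not tested. Also higher were the adhesion molecules *L1cam* (log2 fold change 2.82, SE 0.642) and *Cntn2* (1.99, SE 0.353) and the Eph effector *Ngef* (1.97, SE 0.303). All 4 calls ended without *Eed* KO stomach replicate 2. Those of *Robo4* (3.19 to 5.21 over all libraries left out) and *Cntn2* (1.70 to 2.23) ended without either control stomach library as well, that of *L1cam* (1.89 to 3.56) without any of the 4 control libraries, while *Ngef* (1.61 to 2.47) stayed called without each other library. With RUVg all 4 calls ended, at 3.68 for *Robo4*, 0.63 for *L1cam*, 0.91 for *Cntn2* and 1.44 for *Ngef*. The enteric neural list summed to 21.1 and 26.0 CPM in the *Eed* KO stomach, overlapping the control stomach. *Gap43*, the most abundant in the control stomach, gave 460 and 536 counts there against 179 and 160 counts in *Eed* KO. Under TMM scaling 1 of 12 tested was called in each direction, and their median log2 fold change was 0.53. At an unadjusted p under 0.05, 3 were higher and 1 lower, where 2249 and 1419 of 16218 genes were. The part of this list was not tested.

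In the intestine, few guidance genes were called between *Eed* KO and control. A single member, *Epha2*, was called higher of 65 (2.38% of all genes were), and 0 were called lower by edgeR (0.228% of all genes), with 3 lower at an unadjusted p under 0.05 (3.23% of all genes) and 1, *Ntn5*, by DESeq2. The members' median log2 fold change was 0.11 with all genes at 0.01, and it turned to -0.23 with RUVg (all genes at 0.05) and to -0.03 without *Eed* KO intestine replicate 2. *Epha2* measured 3.93 and 5.32 CPM in the control intestine and 9.13 and 9.90 CPM in the *Eed* KO intestine. As in the stomach, both *Eed* KO libraries were above both controls (log2 fold change 1.04, SE 0.179, edgeR adjusted p = 0.0265). The call ended without either *Eed* KO intestine library, either control intestine library, *Eed* KO stomach replicate 1 or control stomach replicate 2 (0.83 to 1.27 over all libraries left out), with RUVg (1.01) and with only the 2 groups compared (1.04). The number higher was accordingly 0 without *Eed* KO intestine replicate 2, control intestine replicate 1 or 2, *Eed* KO stomach replicate 1 or control stomach replicate 2, while without *Eed* KO intestine replicate 1 the 1 called was *Plxnc1*. With no low-count filter 3 were higher and 1 lower, with RUVg 0 and 1 (*Robo2*), and with spike-in totals 55 and 0, where 13774 of 17739 genes were higher and 20 lower. *Efnb2* stayed at 174 and 159 CPM in control against 171 and 149 CPM in *Eed* KO intestine, overlapping (log2 fold change -0.06, SE 0.103).

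Of the partners, 3 of 56 were higher and 0 lower by edgeR in the *Eed* KO intestine, where 2.38% and 0.228% of all genes were. At an unadjusted p under 0.05, 1 partner was lower, as were 3.23% of all genes. *Robo4* measured 0.253 and 0.538 CPM in control against 3.19 and 2.54 CPM in *Eed* KO, and *Cxcr4*, the receptor of the chemokine *Cxcl12*, 1.85 and 1.85 CPM in control against 4.49 and 4.19 CPM in *Eed* KO. Neither gene overlapped between the groups (log2 fold changes 2.87, SE 0.502, and 1.23, SE 0.189), and both calls ended without any of the 4 intestine libraries (2.40 to 3.48 and 1.18 to 1.27) and with RUVg (2.77 and 1.25), that of *Cxcr4* also with only the 2 groups compared (1.22). *Met* stood just over the fold threshold (log2 fold change 1.00, SE 0.198), and its call ended without either control intestine library, *Eed* KO intestine replicate 2, either *Eed* KO stomach library or control stomach replicate 2 (0.81 to 1.17), with RUVg (0.58) and with only the 2 groups (1.00). The replicate number as a block ended the *Met* call too (0.98). In this organ too, 7 of 12 endothelial markers were higher. The enteric neural list summed to 12.8 and 12.6 CPM in control and to 20.6 and 15.8 CPM in *Eed* KO. Its median log2 fold change was 0.73, that of the epithelial list 1.00 and that of the pericyte list -0.39, with 0 called by edgeR in each. At an unadjusted p under 0.05, 3 of 12 neural and 5 of 11 epithelial markers were higher, as were 1750 of 16218 genes, and 3 of 6 pericyte markers were lower. The part of these lists was not tested.

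Whether *Eed* KO acted differently in the organs was tested by the interaction, the *Eed* KO effect in the stomach minus that in the intestine, called at an adjusted p under 0.2 and a log2 difference over 1. *Efnb2* was the 1 member called below 0 (0.191% of 16218 genes), and 0 were called above 0 by edgeR (0.271% of genes), with 8 at an unadjusted p under 0.05 (2.97% of genes) and 1, *Ephb1*, by DESeq2. The difference for *Efnb2* was -1.07 (SE 0.146, edgeR adjusted p = 0.0580): relative to all genes its level dropped in the stomach and overlapped in the intestine. The call ended without *Eed* KO intestine replicate 1, *Eed* KO stomach replicate 2 or any of the 4 control libraries (-1.17 to -0.97 over all libraries left out), and with spike-in totals (-0.50, or -1.03 relative to all genes). The number below 0 was accordingly 0 without *Eed* KO stomach replicate 2 or any of the 4 control libraries, without *Eed* KO intestine replicate 1 the member called was *Ntn1*, and the number above 0 was 1 without *Eed* KO intestine replicate 2. RUVg gave 1 above and 3 below, DESeq2 and no low-count filter 1 above and 2 below each, and spike-in totals 0 in either direction. The replicate number as a block gave 1 above, *Ephb1*, and 1 below, *Efnb2*, where 104 and 83 of 16218 genes were. For *Epha2* the difference was 0.57 (SE 0.251), for *Sema3c* 0.66 (SE 0.350), for *Plxna4* 1.04 (SE 0.624), for *Sema5b* 0.90 (SE 0.345) and for *Ntn5* -0.48 (SE 0.505), and none of these 5 passed, so the calls made in the stomach are not shown to be absent from the intestine. Of the 56 partners 0 were called in either direction by edgeR, with 4 above and 4 below at an unadjusted p under 0.05, where 482 and 472 of 16218 genes were.

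Between the *Eed* KO organs, 1 of 65 members, *Ntn1*, was higher in the intestine, where 1.46% of all genes were, and 2, *Sema3c* and *Epha1*, were lower, where 2.94% of all genes were. The median log2 fold change of the members was -0.09 and that of all genes 0.00, and it turned to 0.07 without *Eed* KO stomach replicate 2. The comparison shares the *Eed* KO libraries with those above. *Ntn1*, the secreted netrin best known for attraction, measured 103 and 193 CPM in the *Eed* KO intestine and 55.5 and 60.1 CPM in the *Eed* KO stomach, with 136 and 101 CPM in the control intestine and 82.9 and 94.1 CPM in the control stomach. The intestine was higher in each library of both genotypes, and the call was made among *Eed* KO libraries (log2 fold change 1.36, SE 0.280, edgeR adjusted p = 0.0316). It ended without *Eed* KO intestine replicate 2, which held the highest value, without either *Eed* KO or either control stomach library (0.84 to 1.75 over all libraries left out), with only the 2 groups compared (1.37) and with spike-in totals (1.27). Of 6 smooth muscle markers, 4 were higher in the *Eed* KO intestine: the list summed to 3243 and 5520 CPM there and to 1820 and 2059 CPM in the *Eed* KO stomach, with *Acta2* the most abundant, none at 0, and their part in the *Ntn1* difference not tested.

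*Sema3c* measured 43.9 and 52.9 CPM in the *Eed* KO intestine against 108 and 129 CPM in the *Eed* KO stomach. The groups lay far apart (log2 fold change -1.29, SE 0.250, edgeR adjusted p = 0.0259), and the call ended without any of the 4 *Eed* KO libraries (-1.43 to -1.15) and with spike-in totals (-1.53). *Epha1* measured 3.30 and 4.42 CPM in the *Eed* KO intestine and 12 and 15.1 CPM in the *Eed* KO stomach. It kept the organ difference of the controls without *Eed* (log2 fold change -1.82, SE 0.191, edgeR adjusted p = 0.00263), in each fit that left out 1 library, and lost the call with spike-in totals (-2.05). The secreted *Sema3d* (-0.86, SE 0.195), the transmembrane *Sema4f* (-0.93, SE 0.120) and *Epha3* (-0.94, SE 0.151) passed the edgeR adjusted p alone. The number higher was 0 without *Eed* KO intestine replicate 2 or any of the 4 stomach libraries and 2 without *Eed* KO intestine replicate 1 or either control intestine library. The number lower was 1 without *Eed* KO intestine replicate 1 or *Eed* KO stomach replicate 2, 4 without *Eed* KO intestine replicate 2 and 5 by adjusted p alone. Spike-in totals gave 0 in either direction, RUVg, DESeq2 and no low-count filter gave 3 higher each, and with only the 2 groups compared the 1 higher was *Epha8* rather than *Ntn1*. The replicate number as a block gave 2 higher, *Plxnd1* added, and 3 lower, *Plxna4* added, where 298 and 626 of 16218 genes were. Of 56 partners 6 were lower in the *Eed* KO intestine and 0 higher by edgeR, where 2.94% and 1.46% of all genes were. At an unadjusted p under 0.05, 3 partners were higher, as were 1343 of 16218 genes. Among the 6 were *Dcc* (log2 fold change -3.27, SE 0.477), the adhesion molecules *Cntn1* (-2.09, SE 0.362) and *Chl1* (-1.37, SE 0.215) and the semaphorin effector *Dpysl5* (-1.15, SE 0.263). The call of *Dcc* held without each library (-4.14 to -2.71), that of *Cntn1* ended without *Eed* KO stomach replicate 2 (-2.67 to -1.67 over all libraries left out), that of *Chl1* without replicate 2 of either *Eed* KO group (-1.57 to -1.14), and that of *Dpysl5* without any library but *Eed* KO stomach replicate 1 (-1.40 to -0.83). With only the 2 groups compared *Cntn1* (-2.08), *Chl1* (-1.36) and *Dpysl5* (-1.14) were not called, nor with spike-in totals (-2.28, -1.74 and -1.41). The enteric neural list summed to 20.6 and 15.8 CPM in the *Eed* KO intestine and to 21.1 and 26.0 CPM in the *Eed* KO stomach, with none at 0 and 1 of 12 tested lower, and its part was not tested.

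The adult libraries differed in the RNA of cell type markers, and those values come first. The 11 leukocyte markers summed to 2847 and 3804 CPM in adult control and to 97216 and 109782 CPM in adult *Eed* KO, 9 of 11 higher and 1, *Cd79a*, lower, with the antigen presentation gene *Cd74* the most abundant in each library and no listed gene at 0. The mesenchyme list summed to 25498 and 28691 CPM in control against 14968 and 14101 CPM in *Eed* KO (5 of 10 tested lower, 0 higher by edgeR, *Dcn* the most abundant), and the pericyte list to 13366 and 11490 CPM and 4437 and 3197 CPM (3 of 6 lower, *Rgs5* the most abundant). *Nkx3-2* gave at most 0.0773 CPM in the adult. Smooth muscle markers summed to 1820 and 2257 CPM in control and to 3149 and 3707 CPM in *Eed* KO, 3 of 6 higher. The enteric neural list summed to 7.17 and 6.87 CPM in control and to 28.6 and 26.6 CPM in *Eed* KO, with *Foxd3* at 0 in each adult library and 1 of 7 tested called higher, *Elavl4*, at 2 and 3 counts in control against 99 and 107 counts in *Eed* KO, where it was the most abundant by CPM. Endothelial markers summed to 156 and 161 CPM and to 220 and 331 CPM, 2 of 12 higher, *Pecam1* and *Cldn5*, with none at 0. Of 11 tested epithelial markers 1, *Cdx1*, was higher (32.2 and 70.6 CPM against 81.6 and 87.6 CPM for the list). These lists move with the guidance results that follow, and their part was not tested. Library sizes from mesenchyme marker totals were run as an alternative chosen after seeing the data. That scaling sets the mesenchyme list level by construction and does not address the pericyte, leukocyte or other lists.

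In the adult *Eed* KO intestine, 10 of 53 tested members were called lower, where 7.23% of 15039 genes were, and 4 higher, where 12.3% were. The members' median log2 fold change was -0.42, with all genes at 0.00. The number lower was 6 without adult *Eed* KO replicate 2 or adult control replicate 1 and 6 with RUVg. Mesenchyme marker totals raised the median of all genes by 0.92 and turned that of the members to 0.50, with 17 members higher, where 5612 of 15501 genes were, and 2 lower, *Robo1* and *Robo2*, where 222 genes were.

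**Figure D5:**
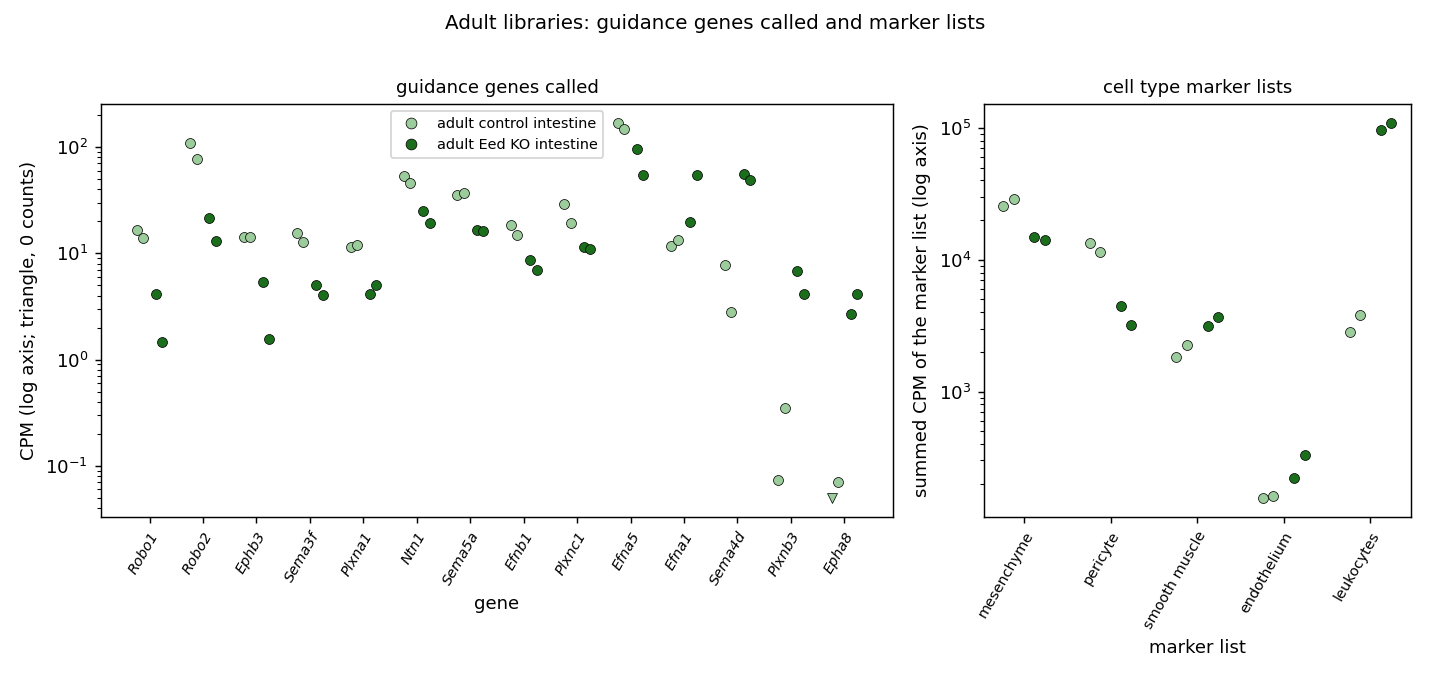
Left, CPM (log axis) of the 14 guidance genes called in the adult comparison, and right, summed CPM (log axis) of 5 marker lists, with a point for each of the 4 libraries and a triangle for 0 counts. *Robo1* and *Robo2* are low in both *Eed* KO libraries under every scaling run, and the leukocyte list is more than 20 times higher there, while under mesenchyme marker totals the other 8 lower genes are no longer called.

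Among adult ligands, *Ntn1* measured 52.8 and 46.0 CPM in control against 25.0 and 19.2 CPM in *Eed* KO. Both *Eed* KO libraries were below both controls (log2 fold change -1.16, SE 0.227, edgeR adjusted p = 0.0114), and the call ended without adult *Eed* KO replicate 2 (-1.39 to -0.99 over all libraries left out). *Sema3f*, a secreted semaphorin that acts through *Nrp2*, measured 15.7 and 12.7 CPM in control against 5.02 and 4.02 CPM in *Eed* KO. It was about 3 times lower (3.14-fold; log2 fold change -1.65, SE 0.335, edgeR adjusted p = 0.0133), and the call ended without adult control replicate 1 (-1.84 to -1.497). *Sema5a* was at 35.2 and 37.2 CPM in control against 16.6 and 16.2 CPM in *Eed* KO, with replicates close (log2 fold change -1.14, SE 0.212, edgeR adjusted p = 0.00947), and held without each library. *Efna5*, the most abundant adult ephrin, measured 169 and 149 CPM in control against 95.7 and 54.0 CPM in *Eed* KO. Its groups did not overlap, with a wide gap between the *Eed* KO libraries (log2 fold change -1.09, SE 0.289, edgeR adjusted p = 0.0349), and its call ended without adult *Eed* KO replicate 2 or adult control replicate 1 (-1.58 to -0.74), with RUVg (-1.03) and with spike-in totals (-1.45). *Efnb1*, a transmembrane ephrin, was at 18.6 and 14.9 CPM in control against 8.63 and 6.88 CPM in *Eed* KO (log2 fold change -1.11, SE 0.299, edgeR adjusted p = 0.0362), a call that ended without adult *Eed* KO replicate 2 or either control library (-1.31 to -0.95) and with RUVg (-1.16). With mesenchyme marker totals the log2 fold changes of these 5 ligands were -0.28, -0.77, -0.25, -0.21 and -0.23, in this order, and none was called.

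The ligands called higher in the adult were *Sema4d* and *Efna1*. *Sema4d*, a transmembrane semaphorin, measured 7.83 and 2.80 CPM in control against 56.1 and 48.6 CPM in *Eed* KO. Both *Eed* KO libraries were far above both controls (9.85-fold; log2 fold change 3.30, SE 0.453, edgeR adjusted p = 0.00294), beside the rise of 9 of 11 leukocyte markers, whose part was not tested. In that list *Cd79a* gave 236 and 206 counts in control against 56 and 101 counts in *Eed* KO. *Cd3e* gave 24 and 52 against 38 and 17 counts. The *Sema4d* call held without each library (2.75 to 4.21) and under every scaling run. *Efna1* measured 11.8 and 13.2 CPM in control against 19.8 and 54.3 CPM in *Eed* KO. The higher value rests on adult *Eed* KO replicate 2 (log2 fold change 1.57, SE 0.450, edgeR adjusted p = 0.0449), and the call ended without it or without adult control replicate 1 (0.65 to 2.1), with RUVg (1.29) and with spike-in totals (1.05).

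Among adult receptors, both detected Robo genes fell. *Robo1* measured 16.6 and 13.8 CPM in control against 4.11 and 1.47 CPM in *Eed* KO, and *Robo2* measured 108 and 77.6 CPM in control against 21.5 and 13.1 CPM in *Eed* KO. All 4 *Eed* KO values lay far below those of their controls, for *Robo1* at a log2 fold change of -2.46 (SE 0.506, edgeR adjusted p = 0.0138) and for *Robo2* at -2.43 (SE 0.301, edgeR adjusted p = 0.00193). Both calls held without each library and under every scaling run, although the size for *Robo1* ranged from -3.39 without adult *Eed* KO replicate 1 to -1.89 without adult *Eed* KO replicate 2. Of their Slit ligands none was called: *Slit3* measured 44.0 and 35.8 CPM in control against 34.9 and 42.6 CPM in *Eed* KO, overlapping, and *Slit2* 17.3 and 19.6 CPM and 16.6 and 13.1 CPM, without overlap (log2 fold change -0.32, SE 0.262, edgeR adjusted p = 0.418). The Slits summed to 21.9 and 18.3 TPM in control and to 12.6 and 13.0 TPM in *Eed* KO, lower also per spike-in count (log2 ratio -0.52), while their sums in CPM overlapped. The summed Robo level was 22.7 and 16.5 TPM in control and 3.38 and 1.63 TPM in *Eed* KO. In the embryo *Robo1* measured 194 and 214 CPM in control intestine and 155 and 330 CPM in *Eed* KO intestine, and those groups overlapped.

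*Ephb3*, a receptor for ephrin-B ligands, measured 14.1 and 14.2 CPM in adult control and 5.32 and 1.55 CPM in adult *Eed* KO. It was lower in both libraries (log2 fold change -2.07, SE 0.553, edgeR adjusted p = 0.0359), with a size from -3.21 without adult *Eed* KO replicate 1 to -1.42 without adult *Eed* KO replicate 2, and lost the call with RUVg (-1.90) and with mesenchyme marker totals (-1.19). *Plxna1*, a receptor for class 3 semaphorins, was at 11.3 and 11.9 CPM in control against 4.11 and 5.03 CPM in *Eed* KO (log2 fold change -1.34, SE 0.337, edgeR adjusted p = 0.0293), and *Plxnc1* at 28.8 and 19.3 CPM and 11.3 and 11.1 CPM (-1.10, SE 0.286, edgeR adjusted p = 0.0327). Neither overlapped between groups. Their calls ended without adult control replicate 1 or adult *Eed* KO replicate 1, that of *Plxna1* also without adult control replicate 2 (-1.503 to -1.23) and with RUVg (-1.37), that of *Plxnc1* also without adult *Eed* KO replicate 2 (-1.35 to -0.80), and both with mesenchyme marker totals (-0.44 and -0.22). *Nrp2*, at 84.2 and 72.8 CPM in control against 44.9 and 40 CPM in *Eed* KO, passed the adjusted p alone (log2 fold change -0.89, SE 0.192, edgeR adjusted p = 0.0170), while *Nrp1* measured 417 and 364 CPM and 320 and 307 CPM.

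Another 2 receptors were called higher from almost nothing. *Epha8*, an ephrin-A receptor, gave 0 and 1 counts in adult control and 27 and 53 counts in adult *Eed* KO, a 69.2-fold ratio for which counting error alone allows 12.1 to 2766 at 95% confidence (edgeR adjusted p = 0.00540). *Plxnb3*, a receptor for *Sema5a*, gave 1 and 5 counts in control and 68 and 53 counts in *Eed* KO (log2 fold change 4.61, SE 0.798, edgeR adjusted p = 0.00719). Both genes were near 0 in each control library and clearly detected in each *Eed* KO library, and both calls held without each library, at 5.41 to 8.39 for *Epha8* and 3.91 to 6.04 for *Plxnb3*, and under every scaling run. *Plxnb3* gave at most 3 counts in any embryonic library.

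Of the 48 partners tested in the adult, 4 were higher and 4 lower (8.33% each), where 12.3% and 7.23% of all genes were. *Cxcr4*, also a leukocyte chemokine receptor, measured 3.44 and 1.68 CPM in control against 13.6 and 15.8 CPM in *Eed* KO, and rose without overlap (log2 fold change 2.52, SE 0.433, edgeR adjusted p = 0.00698; 2.1 to 3.115 over the libraries left out), as did the plexin-binding GTPase *Rnd1* (2.08, SE 0.327). *Dpysl4*, of the collapsin response mediator family, measured 3.59 and 3.71 CPM in control against 0.401 and 0.00 CPM in *Eed* KO (log2 fold change -4.25, SE 1.05, edgeR adjusted p = 0.0272). These 3 changed in both *Eed* KO libraries. The call of *Dpysl4* ended with RUVg (-4.07), and its value ran from -8.65 to -3.16 over the libraries left out.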

How the data were processed

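The authors made the deposited count tables with Trimmomatic 0.32, STAR 2.5.1b and featureCounts, as reads per gene in 12 RNA-seq libraries. Gene lengths from the adult file gave TPM. Pooled ATAC-seq peaks were called by the authors with BWA 0.7.8 and MACS2 2.1.2, and the deposited lists give fold enrichment, a −log10 p-value, a −log10 q-value and a score. Counts were tested with edgeR 4.0.16 in R 4.3.3 (TMM, filterByExpr, quasi-likelihood F-test), for 8 embryonic and 4 adult libraries separately, on 16218 and 15039 genes. Called genes had a log2 fold change over 1 with an adjusted p below 0.05 (0.2 for the interaction). Biological variation between replicates was 15.8% among embryonic and 29.1% among adult libraries. Permuting 2 against 2 libraries can give no p below 0.333. Alternatives were DESeq2 1.42.0, RLE size factors, spike-in totals, 1 RUVg factor, no filter, the adjusted p alone, only the 2 groups compared, the replicate number as a block and each library left out. Scripts were tested on simulated data. Named genes were, in each comparison, up to 12 called members in each direction whose compared groups do not overlap in CPM, in each family the member with the highest mean TPM over embryonic and over adult control libraries, every called member by symbol, *Eed*, and up to 4 called partners per comparison by size of change; members that miss the threshold were named only with values, and 1 adult partner that the rule selects is not reported here. The members and lists were chosen with earlier results of these data known. Tables and figures used Python 3.11.15, numpy 2.4.6, pandas 2.3.3, scipy 1.17.1 and matplotlib 3.10.9.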

Additional observations from a re-analysis of the deposited data

Results flagged for a closer look

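*Efnb2* was singled out because the effect of *Eed* KO differed between the organs by the interaction test: the *Eed* KO effect in the stomach minus that in the intestine was -1.07 on the log2 scale (SE 0.146, edgeR adjusted p = 0.0580). Its level was 313 and 305 CPM in the control stomach, 146 and 136 CPM in the *Eed* KO stomach, 174 and 159 CPM in the control intestine, and 171 and 149 CPM in the *Eed* KO intestine. The stomach libraries separated by genotype and the intestine libraries overlapped. With spike-in totals the difference was -0.50, or -1.03 relative to all genes, and was not called. The call also ended in 6 of the 8 fits that left out 1 library (-1.17 to -0.97).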

How the results depend on the processing

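With 2 libraries per group, 41 of the recounts of called members moved by more than 1.5 times, or to or from 0, when 1 library was left out. The other 47 stayed within 1.5 times of the main count, though not always equal to it. In these fits the lone library of a group is assumed to vary like the other groups. The ranges, higher then lower, were 0 to 1 and 1 to 3 between control organs, 1 to 5 and 1 to 2 for *Eed* KO stomach, 0 to 1 and 0 to 0 for *Eed* KO intestine, 0 to 2 and 1 to 4 between *Eed* KO organs, 0 to 1 and 0 to 1 for the interaction, and 3 to 5 and 6 to 12 in the adult. Between control organs, the number higher was 2 by adjusted p alone, 2 with DESeq2, 2 with only the 2 groups compared and 1 with no low-count filter, and the number lower was 2 with RUVg and 0 with spike-in totals. In the *Eed* KO stomach, 7 were higher by adjusted p alone, 1 with RUVg and 60 with spike-in totals (16386 of 17739 genes), and 1 lower with RUVg and 0 with spike-in totals. In the *Eed* KO intestine, 0 were higher with RUVg, 3 with no filter, 0 with only the 2 groups and 55 with spike-in totals (13774 of 17739 genes), and 1 lower with RUVg, 1 with DESeq2 and 1 with no filter. Between *Eed* KO organs, 3 were higher with RUVg, 3 with DESeq2, 3 with no filter and 0 with spike-in totals, and 5 lower by adjusted p alone and 0 with spike-in totals. For the interaction, 1 was above 0 with RUVg, 1 with DESeq2 and 1 with no filter, and 3 below with RUVg, 2 with DESeq2, 2 with no filter and 0 with spike-in totals. In the adult, 6 were lower with RUVg, and mesenchyme marker totals, chosen after seeing the data, gave 17 higher and 2 lower (5612 and 222 of 15501 genes). With spike-in totals the log2 fold changes in the *Eed* KO stomach turned to 0.73 for *Ntn5*, 1.25 for *Efnb2* and 0.14 for *Eed*, where the median of all genes rose by 2.40 and the values relative to all genes were -1.67, -1.16 and -2.26, and with mesenchyme marker totals that of adult *Eed* turned to 0.58, where the median of all genes rose by 0.92. Of the values for single genes, 302 kept their status as called or not called, 109 lost the call and 5 gained it when a library was left out. A kept status does not mean an unchanged size: that of adult *Robo1* ran from -3.39 to -1.89.

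Libraries share only a replicate number, with nothing in the labels to pair them. Deviations from the group means of same-numbered libraries correlated in all 6 pairs of embryonic groups, at 0.748 between the *Eed* KO organs, 0.370 between the control organs, 0.138 between the stomach genotypes, 0.2 between the intestine genotypes, and 0.250 and 0.282 between groups that differ in both, and at -0.0823 in the adult. With the replicate block, 1 member was higher (*Sema3b*) and 5 lower (*Sema3g* added) between control organs, 5 were higher in the *Eed* KO stomach (*Unc5a* added), 2 higher (*Plxnd1* added) and 3 lower (*Plxna4* added) between *Eed* KO organs, 1 above 0 in the interaction (*Ephb1*) and 5 higher in the adult (*Sema6d* added), and *Met* in the *Eed* KO intestine stood at 0.98. Counts under 3 in a library leave a gene such as *Epha6* near the floor.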
